A study of Mus musculus with 6 samples.

Results

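The genes described here are 9 regulators and products of osteoblasts and chondrocytes, the cells that form bone and cartilage: Runx2, Runx1, Sp7, Sox9, Sox5, Sox6, Alpl, Spp1 and Dmp1. They were picked by symbol, all 9 were matched to 1 identifier each, and they stand among 46983 genes with counts. RNA sequencing was done on mouse embryonic fibroblasts, mesenchymal cells cultured from embryos. The cells were from the C57BL/6 strain, from embryos of 14 days, at passage 16, in both groups. There were 3 libraries labelled wild type (written here "wild-type-labelled") and 3 labelled null for SphK2, the gene of the lipid enzyme sphingosine kinase 2 ("null-labelled"). The comparison asks how transcript levels differ between fibroblasts with these labels. The labels name no other allele or treatment, and neither the design of the null allele nor the number of lines or embryos behind each genotype is given in the sources used here. The libraries of a group may come from 1 culture, and what the p-values measure is then the spread among these libraries alone, part or all of it technical.

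Bone and cartilage cells descend from shared mesenchymal progenitors. Runx2, a runt-domain transcription factor that binds DNA with its partner Cbfb, is required for osteoblasts to form, and Sp7 (osterix) acts downstream of it. Sox9 is the leading transcription factor of chondrocytes, where Sox5 and Sox6 act with it as cofactors. Alpl, Spp1 and Dmp1 encode proteins of mineralising matrix, although fibroblasts and other cells also make Spp1. Embryonic fibroblasts are mesenchymal and can be led towards bone or cartilage in culture, but no such treatment is named in the labels.

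Total counts ran from 15598566 to 23681718 per library, so that the limit a count of 0 allows, 3 counts, is 0.127 to 0.192 CPM, the unit of counts scaled to library size. Levels of a gene are given as CPM with TMM factors, mean ± SD over 3 libraries, and levels of different genes are compared as RPKM, the same CPM per kilobase of exon. Sphk2, the gene named in the labels, was checked first. Its counts were 654, 418 and 503 in wild-type-labelled libraries and 964, 883 and 921 in null-labelled ones. All null-labelled libraries were thus above all wild-type-labelled ones in CPM, at 49.96 ± 1.35 against 27.3 ± 0.906 (SD, n = 3), a log2 fold change of 0.87 ± 0.051 (SE; edgeR adjusted p = 4.48e-64). Of the exonic bases of Sphk2, 20.8% are shared with Dbp and Rpl18 and add no reads. Counts of these 2 genes were also higher in null-labelled libraries, at 143, 88 and 102 against 408, 329 and 376 for Dbp. For Rpl18 they were 2939, 2064 and 2608 against 4399, 3822 and 4234, and a part of either gene in the Sphk2 counts was not tested. The Sphk2 difference goes against the direction the label names. Every direction below is therefore one between labels, and no library stood apart from its group.

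Among the 9 genes, Sox9, Sox5 and Runx1 were higher and Runx2, Sp7, Alpl, Spp1 and Dmp1 lower in null-labelled libraries, and Sox6 had no count in any library. Of the 8 tested, 3 were higher and 5 lower at an edgeR adjusted p under 0.05, where 38.1% of the 15199 genes tested were higher and 41.1% lower, 79.2% in all. In 8 of 8 the groups did not overlap, as in 79.9% of all genes tested, so passing the threshold does not set these genes apart. Sp7 and Dmp1 reached the filter on low counts only through wild-type-labelled libraries and had to differ if tested at all. The sizes ranged widely: Alpl, Sp7 and Dmp1 were lower by over 16-fold, as were 7.41% of all genes tested, while Runx1 differed by 1.13-fold. The median log2 fold change over all genes tested was -0.02. Bulk RNA cannot tell fewer cells with a transcript from less of it per cell.

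**Figure D1:**
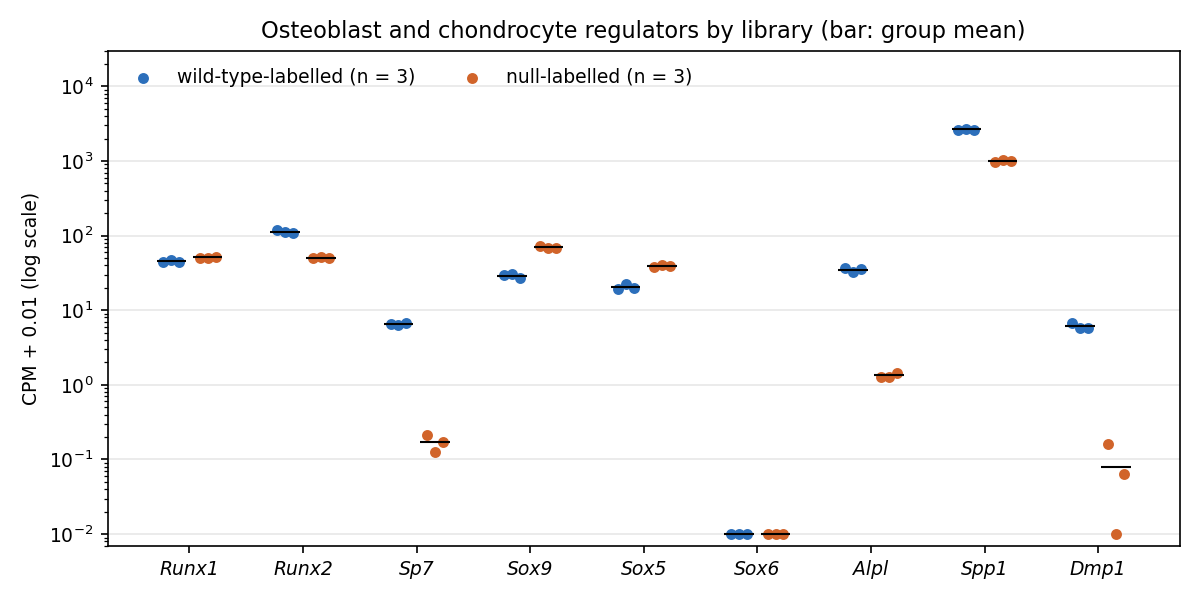
CPM (log scale, 0.01 added so that 0 can be drawn) of each of the 9 genes in the 3 wild-type-labelled and 3 null-labelled libraries, with bars at the group means. Runx1, Sox9 and Sox5 sit higher in null-labelled libraries, the other genes with counts sit lower, and Sox6 is at 0 throughout.

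Runx2 (ENSMUSG00000039153, minus strand of chromosome 17, 44495987 to 44814797, mm10) was more than halved in null-labelled libraries. It stood at 118, 112 and 110 CPM in wild-type-labelled libraries and at 49.8, 51.8 and 49.8 CPM in null-labelled ones. The gap between the groups was many times the spread within either. The means were 113 ± 4.47 and 50.5 ± 1.15 CPM (SD, n = 3), and the log2 fold change was -1.17 ± 0.039 (SE; 95% interval -1.25 to -1.09; edgeR adjusted p = 2.92e-193). Of its 8837 exonic bases, 519 (5.87%) are shared with the antisense gene Runx2os1 and add no reads to either gene. Among all genes tested, its level per length moved from percentile 65.3 to percentile 47.5.

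Runx1 (ENSMUSG00000022952, minus strand of chromosome 16, 92601466 to 92826149) is a family member best known for blood formation that is also expressed in skeletal progenitors. Its CPM values were 44.3, 46.4 and 44.7 in wild-type-labelled libraries and 50.8, 50.2 and 52.2 in null-labelled ones. The groups were close but did not overlap. The log2 fold change was 0.18 ± 0.046 (SE; 95% interval 0.09 to 0.27), with an adjusted p = 0.000117 by edgeR, 0.000313 by limma-voom and 0.0147 by DESeq2. Over the alternative settings the log2 fold change ran from 0.16 to 0.24. Runx3, the family member known for T cells and sensory neurons, was lower, at 24.9 ± 0.608 against 3.15 ± 0.487 CPM (SD, n = 3; log2 fold change -2.98 ± 0.099 SE; edgeR adjusted p = 2.80e-197).

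Summed over the family, Runx transcripts stood at 21.6 ± 0.360 RPKM in wild-type-labelled and 10.7 ± 0.140 RPKM in null-labelled libraries (SD, n = 3). The makeup differed as well. Runx1 made up 17.7% ± 0.553 of the sum in wild-type-labelled libraries and 40.5% ± 1.25 in null-labelled ones (SD, n = 3). The share of Runx2 went from 59.3% ± 1.41 to 53.6% ± 0.517 and that of Runx3 from 23.0% ± 0.924 to 5.90% ± 0.856 (SD, n = 3). Runx2 thus remained the most abundant of the 3 per exon length in every library. In null-labelled libraries this rests on the exon lengths used, 11827 bases for Runx1 and 8837 for Runx2. Their CPM there were 51.1 ± 1.00 and 50.5 ± 1.15 (SD, n = 3). The ratio of Runx1 to Runx2 per exonic base was 0.280, 0.310 and 0.304 in wild-type-labelled libraries and 0.762, 0.725 and 0.783 in null-labelled ones, 2.54 times as high. The ratio of Sox9 to Runx2 moved further, from 0.528, 0.588 and 0.528 to 3.10, 2.86 and 2.94, a 5.41-fold difference. Per length, Runx2 exceeded Sox9 in each wild-type-labelled library and Sox9 exceeded Runx2 in each null-labelled one. An exact two-sided permutation test gave p = 0.1 for each ratio, the smallest that 3 libraries against 3 allow.

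**Figure D2:**
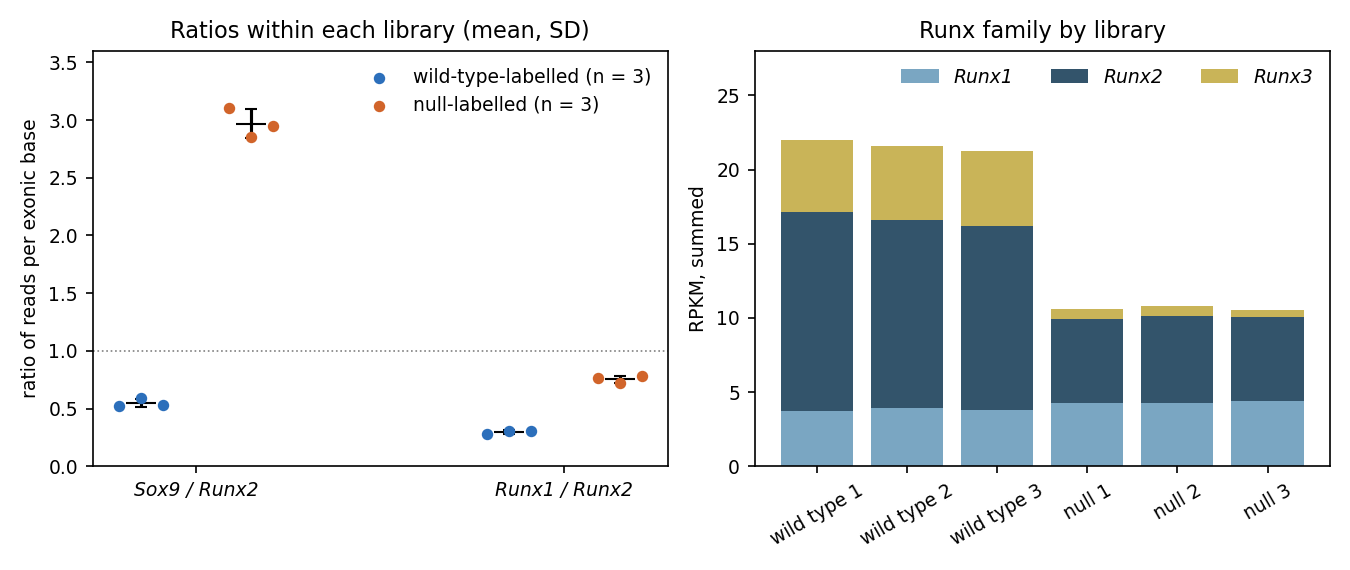
Left, the ratios of Sox9 to Runx2 and of Runx1 to Runx2 in reads per exonic base, a point per library with mean and SD. Right, RPKM of Runx1, Runx2 and Runx3 stacked for each of the 6 libraries. The Sox9 to Runx2 ratio lies under 1 in wild-type-labelled libraries and near 3 in null-labelled ones, and the summed Runx bars are about 21.6 and 10.7 RPKM tall.

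Runt-domain factors bind the letters TGTGGT, or ACCACA on the other strand, which occur in 16.8% of the 32851 RefSeq windows (GRCm38.p6) of 250 bases before to 50 after a gene start. Of the 9 genes, 7 have such a window in the table, and Sp7 and Sox9 do not. Some genes have several windows, 1 per start. Over all of them, the letters were found in 1 of 2 windows of Runx1, of Spp1 and of Dmp1, in the 1 window of Runx2 and in 2 of 6 of Sox6, and in neither of the 2 of Alpl nor the 1 of Sox5, which lies 834871 bases from the annotated start. The sequences below come from the window nearest the annotated start. The 2 matches in the Runx1 window and 2 of the 3 in the Runx2 window lie in a near-identical stretch just after the start sites, shown here 5′ to 3′ on the strand of the gene with the matches in capitals, followed by the third match of Runx2. The RefSeq start used for Runx2 lies 170 bases inside the gene as annotated in the count files, so all 3 of its matches lie within that gene.
Runx1, chr16:92826029-92826050, minus strand: aacaACCACAgaACCACAagtt
Runx2, chr17:44814587-44814608, minus strand: aacaACCACAgaACCACAagtg
Runx2, chr17:44814692-44814717, minus strand: gaggtcacaaACCACAtgattctgtc
Counted from the start site, the matches begin at positions 28 and 36 in the Runx1 window and at 23, 31 and -80 in the Runx2 window. A match of letters is a description and no evidence of binding. The stretch stands in Runx1, which was higher, and in Runx2, which was lower.

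Partners and corepressors of the Runx proteins went both ways. Of the 10 genes listed, 9 were tested, with 4 higher, 4 lower and 1 not past the threshold, and a median log2 fold change of -0.05 against -0.02 over all genes tested. Of all genes tested, 38.1% were higher and 41.1% lower, so this list lies near that split. With DESeq2, 3 were higher and 3 lower. Aes (log2 fold change 0.09 ± 0.034 SE) and Cbfa2t2 (-0.09 ± 0.040 SE) did not pass there (DESeq2 adjusted p = 0.0944 and 0.084). Cbfb, the DNA-binding partner of all Runx proteins, was higher, at 184 ± 3.36 against 241.5 ± 4.55 CPM (SD, n = 3; log2 fold change 0.39 ± 0.027 SE; edgeR adjusted p = 5.40e-47). Runx1t1, a corepressor known from its fusion with Runx1 in leukaemia, had 476 counts over wild-type-labelled libraries and 2 over null-labelled ones, a ratio of 229 (95% counting interval 63.0 to 1896). Tle4, a Groucho corepressor that binds the end of Runx proteins, went the other way, from 4.36 ± 0.771 to 24.4 ± 0.667 CPM (SD, n = 3). Tle1, of the same family, fell by 1.10 on the log2 scale and Tle3 rose by 0.78, and Tle2 had a log2 fold change of -0.05 ± 0.063 (SE; edgeR adjusted p = 0.473).

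Sp7 (ENSMUSG00000060284, minus strand of chromosome 15, 102356609 to 102366325), the zinc finger factor of committed osteoblasts, was nearly absent from null-labelled libraries. Its counts were 152, 98 and 127 in wild-type-labelled libraries and 4, 2 and 3 in null-labelled ones. In CPM, the lowest wild-type-labelled value was 6.42 and the highest null-labelled one 0.205. The means were 6.53 ± 0.109 and 0.160 ± 0.044 CPM (SD, n = 3), and the counts gave a ratio of 40.3 (95% counting interval 21.0 to 88.8). The fitted log2 fold change was -5.28 ± 0.27 (SE; edgeR adjusted p = 4.52e-84). In null-labelled libraries 2 of the 3 values lie at or under 3 counts, where a level cannot be told from a lower one.

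Other factors that guide osteoblasts differed in both directions, more of them downward. Of 16 listed, 11 were tested, with 4 higher and 7 lower and a median log2 fold change of -0.81. Over all genes tested 38.1% were higher and 41.1% lower. Of the 11, 4 reached the filter on low counts in 1 group only, 3 of them in the wild-type-labelled group. Zfp521, a zinc finger protein that binds Runx2 and represses its activity, had 1537 counts over wild-type-labelled libraries and 0 over null-labelled ones, at least 493-fold lower with the group at 0 set to 3 counts. Mef2c, a MADS-box factor of bone and muscle, had 771 counts against 2, a ratio of 371 (95% counting interval 102 to 3068). Twist2, a repressor of Runx2 function, stood at 72.4 ± 0.465 against 14.7 ± 1.88 CPM and Twist1 at 159 ± 0.466 against 59.4 ± 3.38 CPM (SD, n = 3). The list thus holds activators and repressors of Runx2 that were lower together. Higher were Dlx3, a homeobox factor of osteoblasts (log2 fold change 3.34 ± 0.29 SE), the vitamin D receptor Vdr (1.86 ± 0.11 SE), Tcf7 (0.30 ± 0.057 SE) and Atf4 (0.30 ± 0.023 SE), all past 0.05 by edgeR. Dlx5, a homeobox gene of early osteoblasts, had 11, 5 and 11 counts in wild-type-labelled libraries and 0 in each null-labelled one. It did not pass the count filter of the edgeR fit, and DESeq2, with its own filter, gave an adjusted p = 0.000222. With DESeq2 or without a filter, 10 genes of the list were lower instead of 7.

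Sox9 (ENSMUSG00000000567, plus strand of chromosome 11, 112782224 to 112787760) more than doubled. It stood at 29.2, 30.8 and 27.1 CPM in wild-type-labelled libraries and at 72.4, 69.2 and 68.6 CPM in null-labelled ones. The groups did not overlap, and the gap between them was larger than the range of either. The log2 fold change was 1.27 ± 0.047 (SE; 95% interval 1.18 to 1.37; edgeR adjusted p = 3.40e-158), and its level per length moved from percentile 50.9 to percentile 72.6 of all genes tested.

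Sox5 (ENSMUSG00000041540, minus strand of chromosome 6, 143828425 to 144781977) had 19.4, 22.7 and 19.8 CPM in wild-type-labelled libraries and 37.6, 39.96 and 39.7 CPM in null-labelled ones. All null-labelled values were above all wild-type-labelled ones. The log2 fold change was 0.93 ± 0.058 (SE; 95% interval 0.82 to 1.05; edgeR adjusted p = 2.11e-58). Its antisense gene Sox5os1 shares 1330 (9.25%) of its 14376 exonic bases and had 0 counts in all libraries. The ratio of Sox5 to Sox9 per exonic base was 0.204 ± 0.012 in wild-type-labelled and 0.161 ± 0.010 in null-labelled libraries (SD, n = 3), a smaller difference than those of the ratios to Runx2.

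Sox6 (ENSMUSG00000051910, minus strand of chromosome 7, 115470872 to 116038796), the usual partner of Sox5, had 0 counts in all 6 libraries. Its 14832 exonic bases share none with another gene, so no read was lost to that rule, and each library allows a level of up to 0.127 to 0.192 CPM. The Sox9, Sox5 and Sox6 trio of chondrocytes was thus present without Sox6 in both groups.

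Other Sox genes with appreciable counts were mostly near 0 in null-labelled libraries. Of 16 listed, 5 were tested, with 1 higher and 4 lower and a median log2 fold change of -9.585, and 8 of the 16 had at most 3 counts in each group. The 4 lower genes reached the filter on low counts only through wild-type-labelled libraries and had to differ if tested at all. That filter thus fixed their direction but not the size of the median, which follows from how high they stood in wild-type-labelled libraries. Over all genes tested 38.1% were higher and 41.1% lower. Sox2, the factor of pluripotent and neural stem cells, stood at 112 ± 0.567 against 0.0931 ± 0.071 CPM and Sox12 at 71.3 ± 0.440 against 0.0713 ± 0.027 CPM (SD, n = 3). Sox4, a factor of progenitor cells and of the same subgroup as Sox12, had 1891 counts against 2, a ratio of 910 (95% counting interval 251.4 to 7516). Sox11, also of that subgroup, went from 53.7 ± 2.94 to 0.126 ± 0.030 CPM (SD, n = 3). Per exon length, Sox2 (54.4 ± 0.276 RPKM) and Sox12 (16.0 ± 0.099 RPKM) exceeded Sox9 (7.03 ± 0.444 RPKM) in wild-type-labelled libraries, and in null-labelled ones Sox2, Sox12, Sox4 and Sox11 were each under 0.05 RPKM (SD, n = 3). Sox7, a factor of endothelial and endodermal cells, was higher, at 3.64 ± 0.384 against 20.01 ± 0.415 CPM (SD, n = 3).

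Genes known to regulate cartilage growth were mostly lower although Sox9 and Sox5 were higher. Of 15 listed, 10 were tested, with 2 higher and 8 lower and a median log2 fold change of -2.03. Over all genes tested 38.1% were higher and 41.1% lower. Fgfr3 alone among the 10 reached the filter in 1 group only, the null-labelled one. The homeobox gene Prrx2 of limb mesenchyme stood at 104 ± 3.62 against 2.02 ± 0.478 CPM and Shox2, a homeobox gene of the proximal limb, at 112 ± 1.93 against 11.2 ± 0.613 CPM (SD, n = 3). Pthlh, the hormone-like signal that holds back chondrocyte maturation, stood at 18.2 ± 0.756 against 1.19 ± 0.031 CPM (SD, n = 3). The members that were higher were Fgfr3, a receptor that restrains cartilage growth (log2 fold change 2.32 ± 0.29 SE), and the ubiquitin ligase Wwp2, host of a cartilage microRNA (0.56 ± 0.036 SE). Ihh and Barx1, among others, had too few counts to test.

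The matrix genes of cartilage split, and most were hardly detected. Of 23 listed, 16 were not tested, 4 were higher and 3 lower, with a median log2 fold change of 2.505 over the 7 tested. Of the 7, 4 reached the filter on low counts in 1 group only and had to differ if tested at all. These were Cilp2, Col11a2 and Matn4, through null-labelled libraries, and Prg4, through wild-type-labelled ones. Among all genes tested 38.1% were higher and 41.1% lower. With DESeq2, 2 genes of the list were lower instead of 3, since Matn3, whose groups overlapped in CPM, did not pass (DESeq2 adjusted p = 0.118). Acan, the proteoglycan aggrecan, had 1, 1 and 0 counts in wild-type-labelled libraries and 2, 4 and 3 in null-labelled ones, and Matn1 had at most 1 count in any library. Col2a1, the type II collagen of cartilage and a direct target of Sox9, was higher, at 2.08 ± 0.445 against 11.9 ± 0.462 CPM (SD, n = 3; log2 fold change 2.53 ± 0.13 SE; edgeR adjusted p = 4.93e-81). Cilp2, a protein of the cartilage intermediate layer, went from 0.349 ± 0.062 to 11.6 ± 0.488 CPM (SD, n = 3). Col11a2 went from 0.417 ± 0.124 to 2.49 ± 0.032 CPM (SD, n = 3; log2 fold change 2.505 ± 0.28 SE). Col11a1, the partner chain of Col11a2 in type XI collagen, was lower by far, at 253 ± 3.66 against 0.649 ± 0.014 CPM (SD, n = 3). The partner chains of 1 collagen thus went opposite ways, with Col11a2 at few counts in wild-type-labelled libraries.

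Alpl (ENSMUSG00000028766, minus strand of chromosome 4, 137741733 to 137796384) encodes tissue-nonspecific alkaline phosphatase, the enzyme that clears pyrophosphate, an inhibitor of mineral growth, and the usual stain for early osteoblasts. It had 859, 498 and 682 counts in wild-type-labelled libraries and 25, 22 and 27 in null-labelled ones. In CPM wild-type-labelled libraries lay between 32.6 and 36.9 and null-labelled ones between 1.28 and 1.44. The log2 fold change was -4.72 ± 0.11 (SE; 95% interval -4.93 to -4.51), 26.3-fold lower. The edgeR adjusted p was below the smallest number the software stores, and limma-voom gave an adjusted p = 7.99e-18. Its level per length fell from percentile 55.7 to percentile 13.1 of all genes tested.

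Other genes of mineral handling went both ways. Of 13 listed, 11 were tested, with 3 higher, 7 lower and 1 not past the threshold, and a median log2 fold change of -0.59. Over all genes tested 38.1% were higher and 41.1% lower. Mgp, the matrix Gla protein that inhibits calcification, stood at 56.0 ± 2.24 against 1.42 ± 0.262 CPM (SD, n = 3). Ank, which carries ATP and pyrophosphate out of cells, stood at 559 ± 3.52 against 96.4 ± 3.06 CPM (SD, n = 3), and Enpp1, which makes pyrophosphate, had a log2 fold change of -0.59 ± 0.10 (SE). Mgp thus differed by more than Alpl (log2 fold change -5.30 ± 0.095 SE), and genes that supply pyrophosphate were lower together with the enzyme that clears it. Smpd3, the neutral sphingomyelinase needed for bone mineral, was higher, at 0.864 ± 0.204 against 6.17 ± 0.692 CPM (SD, n = 3), and had an edgeR adjusted p = 8.03e-49. Phospho1, the phosphatase of matrix vesicles, had 9, 13 and 9 counts against 26, 13 and 19, and the groups overlapped in CPM. Its log2 fold change of 0.94 ± 0.32 (SE) passed by edgeR (adjusted p = 0.00499) and not by DESeq2 (adjusted p = 0.136), which left 2 higher genes in the list. Anxa2 stood at 1304 ± 25.1 against 1300 ± 32.4 CPM (SD, n = 3; edgeR adjusted p = 0.851).

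Spp1 (ENSMUSG00000029304, plus strand of chromosome 5, 104435118 to 104441050), which encodes the secreted phosphoprotein osteopontin, was by far the most abundant of the 9 genes in both groups. Its counts were 61453, 40609 and 50396 in wild-type-labelled libraries and 19175, 17675 and 18993 in null-labelled ones. Spp1 took 0.258% to 0.260% of all counts in the former and 0.1001% to 0.105% in the latter. By level per length it ranked 5 of 46983 genes in wild-type-labelled libraries and 24 in null-labelled ones. It stood at 2646 ± 13.7 against 1008 ± 25.1 CPM (SD, n = 3), a log2 fold change of -1.39 ± 0.020 (SE; 95% interval -1.43 to -1.35). The edgeR adjusted p was below the smallest number stored, and limma-voom gave an adjusted p = 5.81e-30. Of its 1648 exonic bases, 309 (18.8%) belong also to the gene model Gm42793 on the same strand, and reads over them are not counted.

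Dmp1 (ENSMUSG00000029307, plus strand of chromosome 5, 104202613 to 104214102) encodes an acidic matrix phosphoprotein of osteocytes and tooth dentin. Its counts were 156, 87 and 110 in wild-type-labelled libraries and 3, 0 and 1 in null-labelled ones, at or under 3 counts in each of the latter. The means were 6.05 ± 0.564 and 0.0689 ± 0.078 CPM (SD, n = 3), and the counts gave a ratio of 84.9 (95% counting interval 32.9 to 313). The fitted log2 fold change was -6.28 ± 0.32 (SE; edgeR adjusted p = 8.32e-85). It was -7.47 without null-labelled replicate 1, which holds 3 of the 4 counts, and -5.79 without null-labelled replicate 2, which has none.

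Spp1 and Dmp1 lie in 1 cluster of genes for acidic glycoproteins of bone and tooth, which runs from Dspp through Dmp1, Ibsp and Mepe to Spp1 over 264.4 kb between gene starts. The 5 genes did not move as a block. Mepe, a phosphoglycoprotein of osteocytes, lies between Dmp1 and Spp1 and had 0 counts in each wild-type-labelled library and 88, 91 and 90 counts in null-labelled ones. It was thus at least 93.2-fold higher with the group at 0 set to 3 counts, at 4.87 ± 0.408 CPM (SD, n = 3) in null-labelled libraries, opposite in direction to Dmp1 and Spp1. Dspp, the dentin sialophosphoprotein, had at most 1 count in any library, and Ibsp, bone sialoprotein, at most 2.

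**Figure D3:**
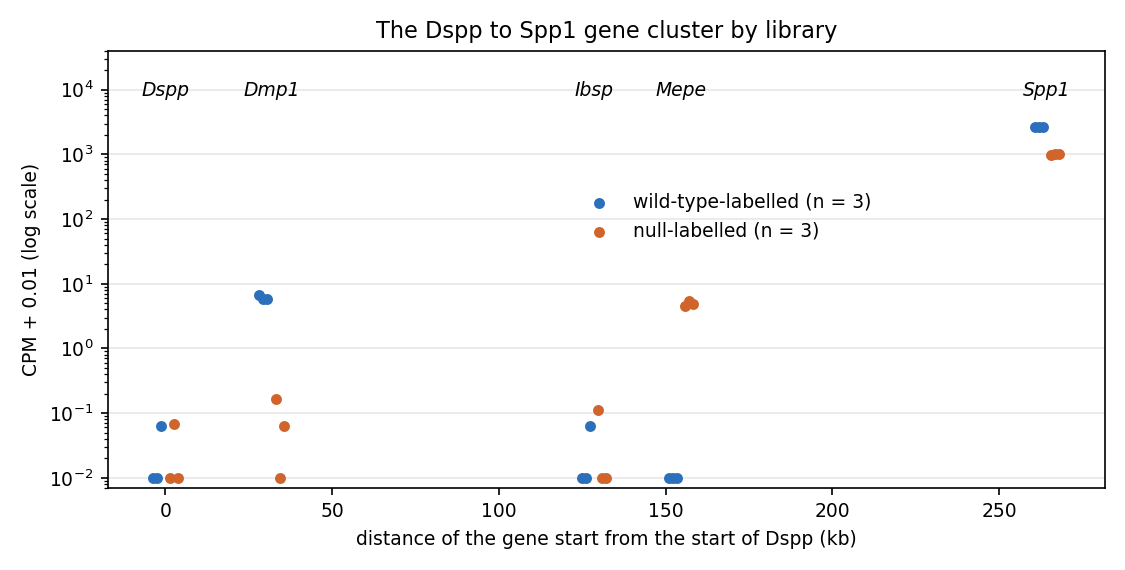
CPM (log scale, 0.01 added) of the 5 genes of the chromosome 5 cluster in each library, placed by the distance of each gene's start from the start of Dspp in kb. Dmp1 and Spp1 are lower and Mepe is higher in the 3 null-labelled libraries, with Dspp and Ibsp at or near 0 in both groups.

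The sequences upstream of Spp1 and Dmp1, which were both lower, each hold 1 match, in the window nearest the annotated start, to the runt-domain letters. They are printed 5′ to 3′ on the plus strand up to the start of the gene, from RefSeq on GRCm38.p6, with the match in capitals.
Spp1, chr5:104434861-104435110, plus strand: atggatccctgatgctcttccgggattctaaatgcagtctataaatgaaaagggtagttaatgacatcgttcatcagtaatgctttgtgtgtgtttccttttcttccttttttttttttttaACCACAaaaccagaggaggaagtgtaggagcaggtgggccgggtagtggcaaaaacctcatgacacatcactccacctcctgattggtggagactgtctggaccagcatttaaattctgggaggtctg
Dmp1, chr5:104202367-104202612, plus strand: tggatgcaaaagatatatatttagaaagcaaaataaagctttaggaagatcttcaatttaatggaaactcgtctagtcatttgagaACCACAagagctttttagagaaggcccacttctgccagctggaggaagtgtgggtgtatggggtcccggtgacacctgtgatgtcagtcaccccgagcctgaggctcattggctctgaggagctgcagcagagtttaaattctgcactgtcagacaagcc
Counted from the RefSeq start of the gene, the match begins at position -128 for Spp1 and at -164 for Dmp1. The letters AACAAT or ATTGTT, bound by Sox proteins, occur in 10.7% of all windows, in 1 of the 6 windows of Sox6 and in no window of the other 6 genes.

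Other osteoblast matrix genes were mostly lower where detected, and several classical ones were hardly detected in either group. Of 16 listed, 9 were tested, with 1 higher (Mepe), 7 lower and 1 not past the threshold, and a median log2 fold change of -4.76. Over all genes tested 38.1% were higher and 41.1% lower. Of the 9, 3 reached the filter on low counts in 1 group only, 2 of them in the wild-type-labelled group. Col1a1 and Col1a2, the chains of type I collagen, the main protein of bone and of fibroblast matrix, stood at 622 ± 17.0 against 1.68 ± 0.209 CPM and 2602 ± 43.1 against 7.38 ± 0.487 CPM (SD, n = 3). Sparc, osteonectin, differed far less (log2 fold change -0.49 ± 0.022 SE; edgeR adjusted p = 1.26e-108). Phex, the endopeptidase mutated in inherited rickets, had a log2 fold change of -2.92 ± 0.12 (SE). Bglap, osteocalcin of mature osteoblasts, had 2 counts in each wild-type-labelled library and 4, 5 and 7 in null-labelled ones, and Sost of osteocytes had 1 count in all 6 libraries together.

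Receptors of osteopontin were lower in 6 of 8 tested and higher in 2, where 41.1% of all genes tested were lower and 38.1% higher. Their median log2 fold change was -1.08, and 1 of the 8 reached the filter only through wild-type-labelled libraries. Cd44, the hyaluronan receptor that also binds osteopontin, stood at 740 ± 8.82 against 326.5 ± 6.12 CPM and Itgb5, an integrin subunit, at 215 ± 6.08 against 88.0 ± 0.953 CPM (SD, n = 3). Itga4 stood at 6.66 ± 1.04 against 1.57 ± 0.107 CPM (SD, n = 3). Itgb1, a subunit shared by many integrins, and Itgb3 were higher by small amounts, with log2 fold changes of 0.24 ± 0.021 and 0.42 ± 0.088 (SE; both past 0.05 by edgeR). Itgav, the partner of Itgb3 and Itgb5, had -0.20 ± 0.029 (SE).

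The signals that steer bone and cartilage cells were lower in 18 of 24 tested and higher in 6, and their median log2 fold change was -1.05. Over all genes tested 41.1% were lower and 38.1% higher. Of the 24, 10 reached the filter on low counts in 1 group only, 8 of them in the wild-type-labelled group, and had to differ if tested at all. Bmp2, the bone morphogenetic protein that induces Runx2 and Sp7 in precursors, stood at 88.9 ± 4.12 against 0.0706 ± 0.077 CPM, and its antagonist Grem1 at 698 ± 9.40 against 1.596 ± 0.347 CPM (SD, n = 3). Both ligand and antagonist were thus nearly absent. Bmp7 went the other way, from 0.113 ± 0.105 to 24.4 ± 0.718 CPM (SD, n = 3). Fgfr2, a receptor of osteoprogenitors, had 1246 counts against 3, a ratio of 399.5 (95% counting interval 136 to 1940). The BMP response genes Id1, Id2 and Id3 had log2 fold changes of -0.33 ± 0.035, -0.86 ± 0.040 and -0.65 ± 0.040 (SE), all past 0.05 by edgeR. Tnfsf11, the osteoclast signal RANKL, had 181 counts against 1 and its decoy receptor Tnfrsf11b 538 against 2. Lrp5 and Lrp6, coreceptors of Wnt proteins, were higher, with log2 fold changes of 0.82 ± 0.037 and 0.32 ± 0.027 (SE).

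Over all 9 lists, 94 of 149 genes were tested, of which 27 were higher, 64 lower and 3 not past the threshold, with a median log2 fold change of -1.04. Over all genes tested, 38.1% were higher and 41.1% lower, 79.2% in all, and single lists such as the Runx partners lie near that split. Of the 94, 29 reached the filter in 1 group only, 20 of them in the wild-type-labelled group, so these counts are a description of genes that could be tested.

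**Figure D4:**
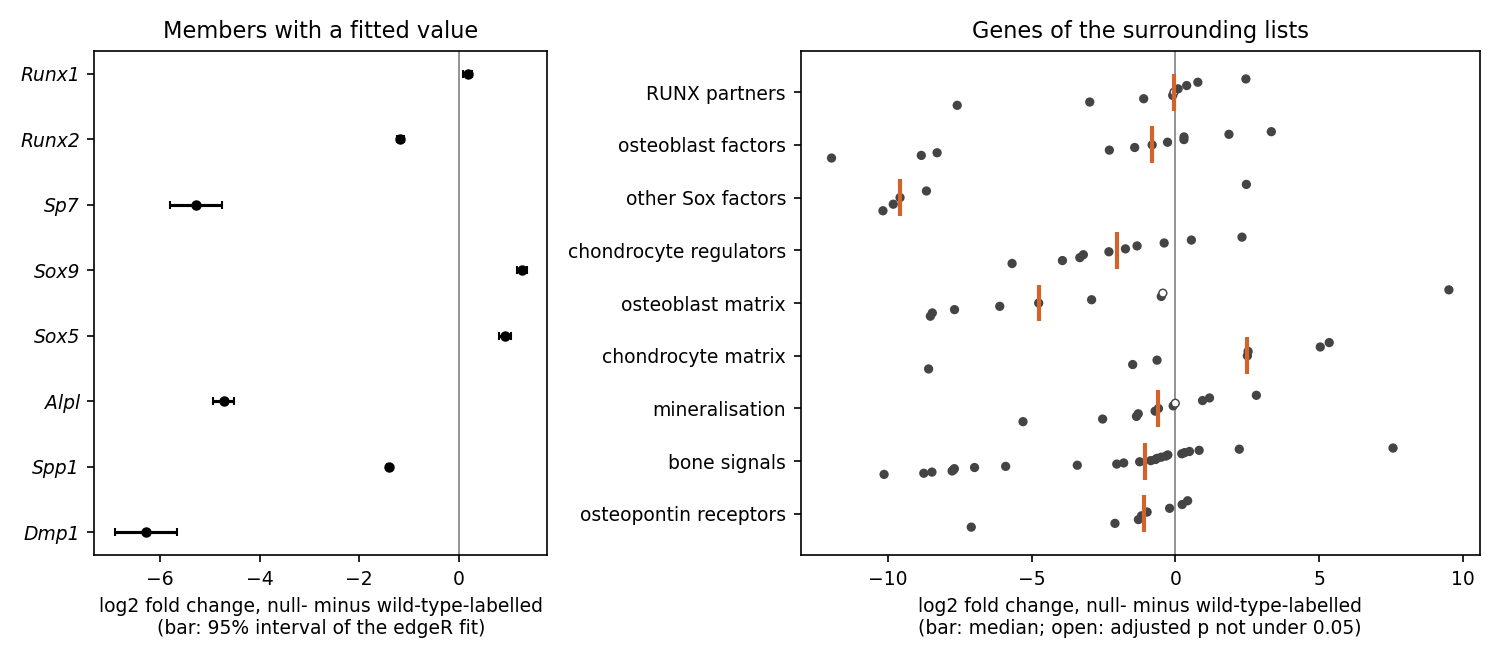
Left, the edgeR log2 fold change (null-labelled minus wild-type-labelled) of the 8 tested genes with its 95% interval. Right, the log2 fold change of each tested gene in the 9 surrounding lists, with the list's median as a bar and open points for genes not past 0.05. Alpl, Sp7 and Dmp1 lie under -4, Runx1 near 0, and the list medians run from -9.585 for the other Sox genes to 2.505 for cartilage matrix.

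The label of the cells was set beside markers of fibroblasts and of other cell types. Summed over 10 fibroblast markers, wild-type-labelled libraries had 9780 to 10065 CPM and null-labelled ones 3435 to 3472, and all 10 were lower. Over all genes tested 38.1% were higher and 41.1% lower. Of the 10, 4 reached the filter on low counts only through wild-type-labelled libraries and had to differ if tested at all. Col3a1, type III collagen, stood at 3055 ± 76.5 against 8.85 ± 0.422 CPM (SD, n = 3), and Thy1 was at 0 counts in all null-labelled libraries and at least 82.1-fold lower. Vim stood at 5615 ± 115 against 3207 ± 17.8 CPM (SD, n = 3) and made up most of the sum in both groups. Fibroblast markers thus moved with Runx2, Sp7, Alpl, Spp1 and Dmp1, and opposite to Sox9, Sox5 and Runx1, and their part in those results was not tested. Of 9 macrophage markers, 4 were tested, 2 higher and 2 lower, and the sums were 19.0 to 20.8 against 10.5 to 11.2 CPM. Cd14 stood at 16.0 ± 0.935 against 4.84 ± 0.360 CPM and Cd68 fell by 0.72 ± 0.18 (SE) on the log2 scale. Lyz2, with 2 counts against 152, and Csf1r, with 16 against 56, were higher. Both reached the filter on low counts only through null-labelled libraries and had to differ if tested at all. Adgre1 and Itgam were at 0 in wild-type-labelled libraries and had 2 counts each over null-labelled ones. The 7 osteoclast markers summed to 128 to 132 against 60.6 to 64.5 CPM. Of these the protease gene Ctsk stood at 70.3 ± 1.48 against 0.292 ± 0.120 CPM and Acp5 at 1.03 ± 0.267 against 5.03 ± 0.179 CPM (SD, n = 3), and Calcr was at 0 in all libraries.

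Of the 10 epithelial markers, the sums were 107.5 to 110 against 384.5 to 411.5 CPM, nearly all from Krt8 (107 ± 1.80 against 396 ± 13.4 CPM, SD, n = 3), while Epcam had at most 5 and Cdh1 at most 11 counts in any library. The 9 trophoblast markers summed to 1.25 to 2.09 against 19.9 to 20.7 CPM, nearly all from Hand1 (0.136 ± 0.034 against 20.02 ± 0.213 CPM, SD, n = 3), and Cdx2 and Prl3d1 were at 0 throughout. The 6 adipocyte markers summed to 38.2 to 40.2 against 2.04 to 3.30 CPM, with 1 of the 3 tested higher and 2 lower. Over all genes tested 38.1% were higher and 41.1% lower, and each of the 3 reached the filter on low counts in 1 group only. Lpl stood at 29.0 ± 1.40 against 0.106 ± 0.048 CPM (SD, n = 3) and Pparg had 528 counts against 3. Cfd was higher, with 38 counts against 122, and Adipoq had at most 1 count in any library. The 7 endothelial markers summed to 1.72 to 2.43 against 2.61 to 3.41 CPM, with Emcn at 0 throughout. The 6 skeletal muscle markers summed to 3.95 to 5.28 against 3.04 to 3.91 CPM, nearly all from Des (log2 fold change -0.33 ± 0.15 SE, adjusted p = 0.0315 by edgeR and 0.185 by DESeq2), with Myod1, Myog and Pax7 at 0. The 7 Schwann cell and neural crest markers summed to 17.2 to 17.7 against 16.3 to 18.6 CPM, most of it Erbb3 (15.6 ± 0.425 against 11.2 ± 0.461 CPM, SD, n = 3), and Sox10 had 2 counts in all. Of these lists, osteoclast, epithelial, trophoblast and adipocyte sums differed most between the groups, each through 1 or a few genes, and their part in the results on the 9 genes was not tested. Among the genes named for them, Hand1 and Cfd reached the filter only through null-labelled libraries. Ctsk, Lpl and Pparg reached it only through wild-type-labelled ones.

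Per exon length, the order of the 9 genes differed between the groups. In wild-type-labelled libraries Spp1 (1605 ± 8.32 RPKM) was followed by Runx2 (12.8 ± 0.506), Alpl (8.70 ± 0.545), Sox9 (7.03 ± 0.444), Runx1 (3.82 ± 0.094), Sp7 (2.25 ± 0.038), Dmp1 (2.19 ± 0.204) and Sox5 (1.43 ± 0.125; SD, n = 3). Sp7 and Dmp1 did not differ beyond their spread. In null-labelled libraries the order was Spp1 (611.6 ± 15.3 RPKM), Sox9 (16.9 ± 0.488), Runx2 (5.71 ± 0.130), Runx1 (4.32 ± 0.085), Sox5 (2.72 ± 0.091), Alpl (0.331 ± 0.022), Sp7 (0.0552 ± 0.015) and Dmp1 (0.0249 ± 0.028; SD, n = 3). The last 2 lie at few counts and are not told apart. Sox9 thus moved from a level under those of Runx2 and Alpl to the highest after Spp1.

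Tested genes within 500 kb of each of the 9 were set beside it, including any that overlap its span. Of all genes with counts listed, tested or not, 7 overlap the span of Sox5 and 5 that of Runx2. Around Sox5, 8 of 8 were higher, their median log2 fold change being 1.22, where 38.1% of all genes tested were higher. Around the genes that were lower, the neighbours were lower in 4 of 5 for Runx2, 19 of 28 for Sp7, 7 of 10 for Alpl, 6 of 11 for Spp1 and 7 of 11 for Dmp1, where 41.1% of all genes tested were lower, and the windows of Spp1 and Dmp1 overlap. Around Runx1, which was higher, 3 of 3 were lower, and around Sox9 1 of 3 was higher. The median log2 fold change of the tested neighbours was -7.70 for Runx2, -0.45 for Sp7, -0.30 for Alpl, -0.38 for Spp1 and for Dmp1, -0.93 for Runx1 and 0.18 for Sox9. These counts are small and were not tested. How many neighbours reached the filter on low counts in 1 group only was not counted, and such genes had to differ if tested at all. The nearest tested named gene on each side is given next, also where it lies beyond 500 kb. Bcat1, on 1 side of Sox5, rose with it (log2 fold change 1.24 ± 0.026 SE). Etnk1, 596 kb away on the other side and so outside the window, had 0.04 ± 0.028 (SE; edgeR adjusted p = 0.234). Beside Runx2, Enpp4 had 6.71 ± 0.549 CPM in wild-type-labelled libraries (SD, n = 3) and was at 0 in null-labelled ones. Cdc5l, 577 kb away, had a log2 fold change of -0.22 ± 0.036 (SE). Beside Runx1, Rcan1 was lower (-0.93 ± 0.061 SE) and Setd4, 757 kb away, had -0.07 ± 0.12 (SE). Around Sp7, Aaas had -0.37 ± 0.033 and Sp1, a related zinc finger gene, 0.03 ± 0.027 (SE; edgeR adjusted p = 0.347). Sox9 lies in a gene-poor stretch, with Kcnj2 1705 kb away on 1 side, at 1.201 ± 0.135 CPM in the wild-type-labelled and 0 in null-labelled libraries (SD, n = 3), and Slc39a11 457 kb away on the other, with a log2 fold change of 0.02 ± 0.069 (SE). Beside Alpl, Rap1gap (-0.65 ± 0.053 SE) and Ece1 (-0.43 ± 0.037 SE) were lower by much less than Alpl. Pkd2, beside Spp1, had -0.38 ± 0.034 (SE) and Sparcl1, beside Dmp1, -5.89 ± 0.39 (SE), at 3.62 ± 0.459 against 0.054 ± 0.0037 CPM (SD, n = 3). On the sides of the silent Sox6, Insc, 620.5 kb away, had a log2 fold change of -5.86 ± 0.60 and Plekha7 3.48 ± 0.45 (SE). Both lie near 0 in 1 group, Insc at 1.45 ± 0.378 against 0.018 ± 0.031 CPM and Plekha7 at 0.106 ± 0.090 against 1.22 ± 0.093 CPM (SD, n = 3).

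Genes whose centred log2 CPM profile over the 6 libraries was nearest to each of the 8, by Euclidean distance, were sought among named genes whose log2 CPM averaged at least 3. They were Atf2 (distance 0.0313) and Atad1 (0.0323) for Runx1, Akap13 (0.0667) and Cyp51 (0.0764) for Runx2, and Tmem170b (0.0593) and Fas (0.0672) for Sox9. For Sox5 they were Repin1 (0.0801) and Zc3h12a (0.0864), and for Spp1 Ppp3ca (0.0629) and Cnn3 (0.0643). Efnb2 (0.149) and Mab21l2 (0.226) were nearest to Alpl, Scube3 (0.160) and Igf2r (0.328) to Sp7, and Apol9b (0.588) and Ifi47 (0.635) to Dmp1. With 2 groups of 3 libraries, such a distance mostly measures how alike the differences between the groups are.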

How the data were processed

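RNA was sequenced as single reads of 51 bp, per the labels, and each library has 1 file of read counts per gene. The authors counted reads with featureCounts 1.6.2, per the file headers, using Ensembl release 83 on GRCm38 (mm10 chromosome names), summed over exons. No option for strand, multimapping or overlapping genes was set, so by the program's default reads over exons of several genes were left uncounted. The submitters' processing notes name Subread 1.6.2, Trimmomatic 0.33, FastQC 0.11.2, another version of featureCounts (1.2.6) and the builds GRCm38, mm10 and hg38.

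Groups came from the titles. The 46983 genes (98.9% with a symbol) were filtered with filterByExpr to 15199, scaled by TMM and tested with the quasi-likelihood F-test of edgeR 4.0.16 (R 4.3.3, robust), 3 null-labelled against 3 wild-type-labelled libraries, without covariates, with Benjamini-Hochberg adjustment over all genes and a threshold of 0.05. The standard error is the log2 fold change over the square root of F. The fit pools spread across genes, so very small p-values rest on that pooling. A group at 0 was set to 3 counts over the group for a bound. Counting intervals (exact binomial, 95%) cover counting error only, since reads are not independent molecules. The code was checked on simulated counts. Within a group, counts differed by more than sampling noise (chi-square of 1.44 to 2.04 per degree of freedom). Each library was taken as 1 unit, and this spread does not show that the libraries are separate cultures.

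The members and lists were chosen with earlier results of these data known. Named were, besides the members and Sphk2, the up to 3 genes of each of 9 lists (Runx partners, osteoblast factors, other Sox genes, chondrocyte regulators, osteoblast matrix, chondrocyte matrix, mineralisation, bone signals, osteopontin receptors) and up to 2 of each of 9 marker lists with the largest log2 fold change past 0.05 and an average log2 CPM of at least 1. Genes of the chromosome 5 cluster, the nearest tested neighbours and the 2 nearest profiles were named as well. Further list genes were named after their values were seen. The 15 alternatives were median-of-ratios, library-total and upper-quartile scaling, DESeq2 1.42.0, limma-voom (limma 3.58.1), no filter, over 1 CPM in 3 libraries, a replicate block, a threshold of 0.01 and leaving out each library. Promoter windows came from RefSeq (GRCm38.p6).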

Additional observations from a re-analysis of the deposited data

How the results depend on the processing

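The 8 tested genes and Sphk2 kept their direction and stayed past 0.05 in all 15 alternatives, with 3 higher and 5 lower in each, and the counts over all lists stayed within 1.5 times of 27 higher and 64 lower. Replicate numbers did not pair the samples (correlations of same-numbered deviations 0.0123, -0.0028 and 0.0181). With a replicate block the log2 fold changes were 0.18 for Runx1, -1.17 for Runx2, -5.27 for Sp7, 1.28 for Sox9, 0.93 for Sox5, -4.71 for Alpl, -1.39 for Spp1, -6.27 for Dmp1 and 0.87 for Sphk2, and no call changed. Dmp1 moved most, to -7.47 without null-labelled replicate 1. The scaling alternatives shifted the median of all genes by at most 0.06 on the log2 scale. Without a filter on low counts, 2 other Sox genes were higher and 5 cartilage matrix genes lower, instead of 1 and 3, and 10 osteoblast factors were lower instead of 7, as with DESeq2. With exon bases shared with other genes left out, an alternative chosen after seeing the data, the ratios in null-labelled libraries were 2.79 for Sox9 to Runx2, 0.719 for Runx1 to Runx2 and 0.177 for Sox5 to Sox9, the last being 0.225 in wild-type-labelled ones. Depth limits Sp7 and Dmp1 in null-labelled libraries and Sox6 in all, where counts lie at or near 0.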
